A study of Mus musculus with 41 samples.

Results

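The MHC class I presentation genes were examined in mouse mesothelioma cell lines and tumors. They are 10 named genes (H2-K1, H2-D1, B2m, Tap1, Tap2, Tapbp, Nlrc5, Psmb8, Psmb9, and Erap1) of the 27197 genes in the RNA count table, and they were taken by name for their role in presentation, with earlier results of these data known. The study inactivated Nf2 and Cdkn2ab, with or without Bap1, in the thorax of mice and compared the resulting mesotheliomas. RNA was sequenced from 3 lines labelled Bap1-/-;Nf2-/-;Cdkn2ab-/- (BNC; JB81, JB91, and JB97), 3 lines labelled Nf2-/-;Cdkn2ab-/- (NC; JB84, JB87, and JB93), and 9 tumors. Loss of Nf2 and Cdkn2ab is thus shared by both groups of lines, and the groups differ in Bap1 by label. The floxed alleles were recombined with an adenovirus that expresses Cre from the CMV promoter, which is not restricted to mesothelial cells, and Ink4a and Ink4b were already deleted in the germline of these mice. The mice received cyclosporine A when young and had a mixed FVB, C57BL/6, and 129Ola background, and each line was grown out of pieces of a primary tumor and used at early passage. The H2 alleles of that background can differ from the reference, so that reads of polymorphic class I genes can be lost or assigned to a related gene. The labels give 5 of the tumors as BNC and 4 as NC, but the heads of the tumor columns do not give a genotype, so tumors are described as 1 set and were not compared by Bap1 status.

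MHC class I molecules carry peptides of cytosolic proteins to the cell surface, where CD8 T cells read them. The proteasome, in which interferon-induced subunits can replace constitutive ones, cuts the proteins, the TAP1-TAP2 transporter moves the peptides into the endoplasmic reticulum, and tapasin and ERAP1 load and trim them onto a heavy chain bound to beta-2 microglobulin. The genes of this pathway are known targets of interferons and of the transactivator NLRC5. Whether class I expression went with the interferon state of single lines was the question asked of these data.

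The total count was 23936922 in JB81, 23772111 in JB91, 20231284 in JB97, 13685421 in JB84, 12377675 in JB87, and 18999233 in JB93. It ranged from 8158740 to 21851974 in the tumors. JB81 and JB91 were close over the whole transcriptome, with 5 of 10511 genes more than 2-fold apart, and so were JB84 and JB93, with 8 of 10545. Every other pair of lines had between 1334 and 3739 such genes. The close pairs differed by more than counting noise (chi-square per degree of freedom of 14.3 and 20.9), which could also be seen between cultures of 1 tumor. Each line was counted as 1 replicate as labelled, and each group of 3 holds a pair of nearly identical profiles and 1 line that stands apart, JB97 among the BNC lines and JB87 among the NC lines. Nothing in the sources used here says whether the lines of a close pair came from separate mice, and if they did not, p-values are too small. The column heads also carry a number that precedes the sample number, taken here as a sequencing run, which was shared by JB81, JB84, and JB87 (the first run), by JB91, JB93, and JB97 (the second run), and by all tumors (the third run).

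The labels were checked against the targeted genes first. Bap1 stood at 41.0, 42.0, and 37.5 CPM (counts scaled to the TMM-adjusted library total) in JB81, JB91, and JB97 and at 56.4, 56.6, and 59.4 CPM in JB84, JB87, and JB93. It was lower in all 3 BNC lines, by 0.57 on the log2 scale (SE 0.13; edgeR adjusted p = 0.0390), and reads of exons outside the deleted part still count toward it. Nf2, deleted in both groups by label, had 83.8, 84.8, and 121 CPM in the BNC lines and 91.8, 111, and 93.1 CPM in the NC lines. It did not pass the test (log2 fold change -0.09; edgeR adjusted p = 0.734), which cannot check a loss that both groups share. Cdkn2a had at most 12 counts and Cdkn2b at most 1 in any line. The mesothelial marker Msln had 0.210, 0.421, and 227 CPM in the BNC lines and 1891, 841, and 1987 CPM in the NC lines. JB81 and JB91 thus nearly lacked it, and Krt8, Krt18, Krt19, Pdpn, and Upk3b were also near 0 in both, whereas the mesothelial transcription factor gene Wt1 had 125, 125, and 76.4 CPM in the BNC lines and 79.3, 105, and 71.0 CPM in the NC lines. Of 10 mesothelial markers, 2 were lower in BNC lines at an edgeR adjusted p under 0.05 and 0 were higher. Of all genes tested, 8.45% were lower and 5.78% higher at that threshold. The 2 were the keratin genes Krt18 (log2 fold change -8.12; edgeR adjusted p = 0.0187) and Krt8 (-6.74; adjusted p = 0.0457), and each reached the filter in 1 of 3 BNC lines. Vim, which encodes the mesenchymal filament protein vimentin and was the most abundant of these markers, had 12130, 12250, and 4375 CPM in the BNC lines and 1206, 4237, and 1240 CPM in the NC lines (log2 fold change 2.06; edgeR adjusted p = 0.0885), and DESeq2 called it higher.

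All 10 class I genes had a lower mean level in the BNC lines than in the NC lines. Psmb8, a catalytic subunit of the immunoproteasome, showed the largest difference in the edgeR fit of all lines. Without JB97, Nlrc5 did (log2 fold change -5.79 against -5.45 for Psmb8). The heavy chain genes and both TAP genes were lower by about 5- to 8-fold (log2 fold changes -2.30 to -2.99), whereas B2m, Tapbp, and Erap1 were lower by 1.93- to 2.64-fold and overlapped between the groups. At an edgeR quasi-likelihood adjusted p under 0.01 and a more than 2-fold change, 1 of the 10 genes, Psmb8, was called, where 0.654% of the 12376 genes tested were called lower. At an adjusted p under 0.05, 6 of 10 were lower (H2-K1, H2-D1, Tap1, Tap2, Psmb8, and Psmb9), where 8.45% of all genes tested were lower and 5.78% higher. Every BNC line was below every NC line in 7 of 10 genes, where 21.4% of all genes tested had that order and 20.1% the opposite one. The median log2 fold change was -2.46 over the 10 genes and -0.0023 over all genes tested. Nlrc5, Psmb8, and Psmb9 reached the filter on low counts in 0, 0, and 1 of the BNC lines and in all 3 NC lines, so that they could pass it only with a difference of this direction, and of the 7 genes with at least 10 counts in every line, 4 had an adjusted p under 0.05 and 0 were called when the test was limited to such genes, of which 6.36% were lower at that adjusted p. DESeq2 called 7 of the 10 (8.51% of the genes it tested were called lower).

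These calls depended on which lines were present. Without JB81 or without JB91, 0 of the 10 genes had an edgeR adjusted p under 0.05, without JB84 or JB93 1 had (Psmb8), without JB97 5 had and 2 were called, and without JB87 all 10 had and 7 were called. The share of all genes tested moved too. Lower at an adjusted p under 0.05 were 0.251% of genes without JB84, 0.266% without JB93, 14% without JB97, and 25.5% without JB87, and called lower were 4.31% without JB97 and 9.76% without JB87. When the counts of each close pair were summed into 1 library, 0 of 10 had an adjusted p under 0.05 although 6 had an unadjusted p under 0.05, as had 11.7% of all genes in that fit. With the run as a covariate 2 of 10 had an adjusted p under 0.05, where 1.34% of all genes tested were lower at that threshold. The direction was the same in both runs. All 10 genes were lower in the BNC lines within the first run (differences of log2(CPM + 1) from -3.04 to -0.62) and within the second run (-3.12 to -1.06), with 1 or 2 lines of a group in each run and therefore no test. Each run held 1 line of each close pair, so the second run largely repeats the first and is not a separate check.

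**Figure D1:**
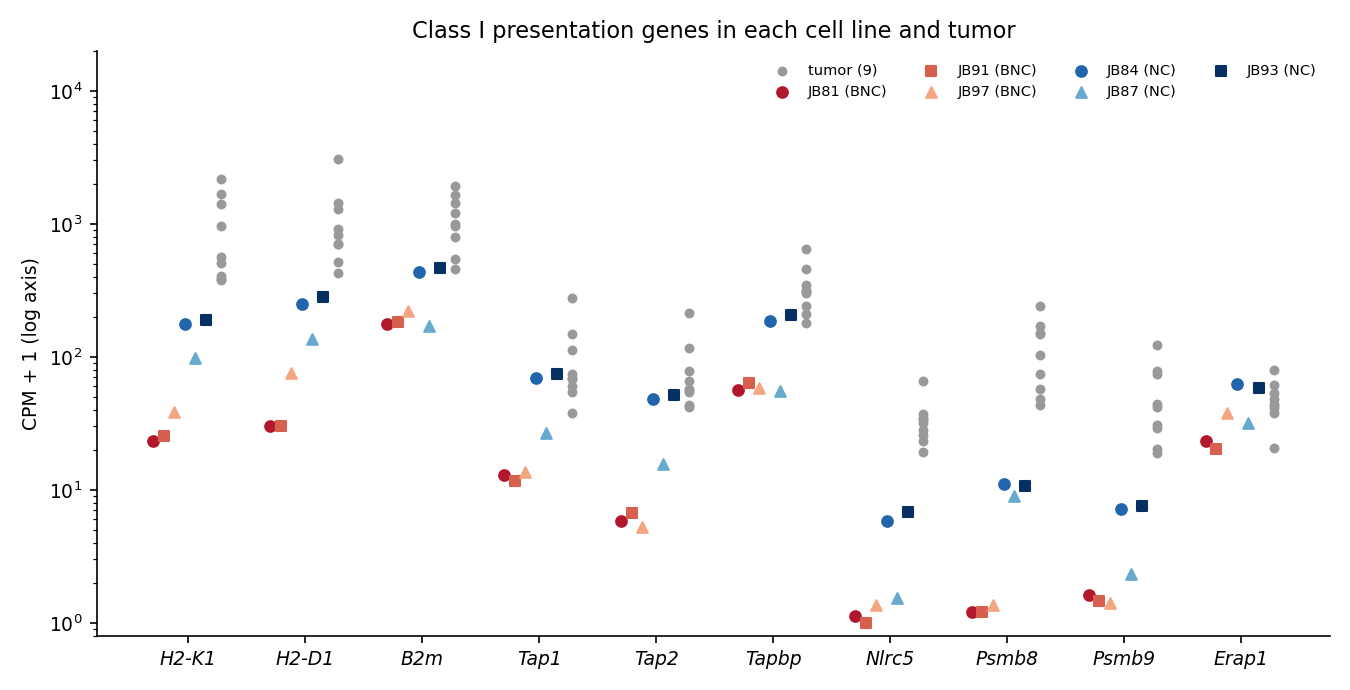
Level of each class I gene in every library, as CPM + 1 on a log axis, with 1 point per library for the 3 BNC lines (red), the 3 NC lines (blue), and the 9 tumors (gray). JB87 lies near the BNC lines for B2m and Tapbp and near the other NC lines for Psmb8, and all 9 tumors lie above every line for H2-K1, H2-D1, Nlrc5, Psmb8, and Psmb9.

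**Figure D2:**
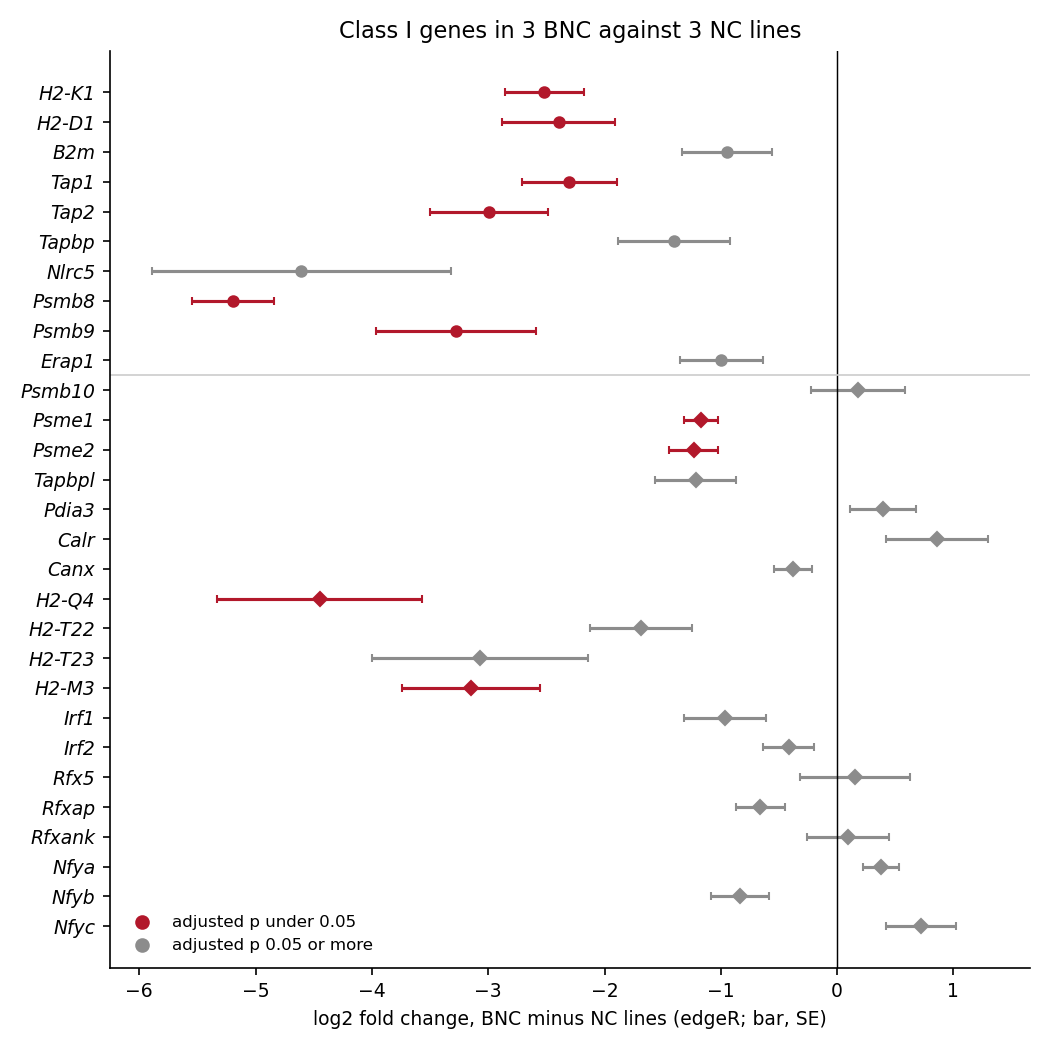
Log2 fold change between BNC and NC lines from the edgeR fit (horizontal axis, negative values are lower in BNC lines) with bars of 1 SE, for the 10 class I genes (circles) and the 19 tested genes of the wider class I pathway (diamonds), in red where the adjusted p is under 0.05. Values of the 10 genes run from -5.20 for Psmb8 to -0.95 for B2m, and their bar is longest for Nlrc5 (SE 1.29).

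The classical heavy chains H2-K1 and H2-D1 bind the peptide and are the polymorphic part of the complex. H2-K1 (chr17:33996017-34000347, minus strand) stood at 22.2, 24.4, and 37.8 CPM in JB81, JB91, and JB97 and at 176, 96.5, and 188 CPM in JB84, JB87, and JB93. The groups did not overlap, and H2-K1 fell 5.72-fold in the BNC lines (log2 fold change -2.52, SE 0.34; edgeR adjusted p = 0.0137). H2-D1 (chr17:35262730-35267499, plus strand) had 28.96, 29.01, and 74.4 CPM in the BNC lines and 248, 135, and 279 CPM in the NC lines. It fell 5.26-fold (log2 fold change -2.39, SE 0.49; edgeR adjusted p = 0.0312), with JB97 the highest BNC line and JB87 the lowest NC line for both heavy chains. The heavy chain genes are related in sequence, as are the nonclassical class I genes, and reads can be split between them.

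The sequences just upstream of the heavy chain genes and of B2m are shown because class I promoters are known for their interferon and NF-kappaB elements. They are the reference sequences of RefSeq (GRCm38.p6, the mm10 build), not those of the lines, in lower case with the match to an interferon element in capitals. In the H2-K1 region (chr17:34000348-34000597, minus strand) the capitals mark GAANNGAAA read on the opposite strand, and in the B2m region (chr2:122147437-122147685, plus strand) they mark GAAA, any 2 bases, and GAAA.
H2-K1: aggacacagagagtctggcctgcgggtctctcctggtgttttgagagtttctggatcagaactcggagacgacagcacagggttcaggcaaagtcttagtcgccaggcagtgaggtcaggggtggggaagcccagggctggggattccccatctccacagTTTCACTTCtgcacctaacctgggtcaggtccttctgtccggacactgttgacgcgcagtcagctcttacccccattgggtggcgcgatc
B2m: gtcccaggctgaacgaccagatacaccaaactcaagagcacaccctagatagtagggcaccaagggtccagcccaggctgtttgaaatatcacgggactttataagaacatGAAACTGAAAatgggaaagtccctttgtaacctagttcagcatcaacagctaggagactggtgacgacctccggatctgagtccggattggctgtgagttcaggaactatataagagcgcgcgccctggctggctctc
The same stretch lies before the RefSeq start of both heavy chain genes, chr17:34000428-34000457 on the minus strand for H2-K1 and chr17:35262924-35262953 on the plus strand for H2-D1, and was identical in 29 of 30 bases, with GAANNGAAA on the opposite strand in capitals. The GENCODE gene given above starts earlier for H2-D1, so that its site lies inside that gene model, and RefSeq and GENCODE starts also differ for Psmb8, Psmb9, Tapbp, and Erap1.
H2-K1 site: gggattccccatctccacagTTTCACTTCt
H2-D1 site: gggattccccatctcctcagTTTCACTTCt
Of the 10 genes, 8 had an entry in the promoter table (Tap2 and Nlrc5 are named only). Within the 250 bases before the start, read on both strands, the core of the interferon response element (GAAA, any 2 bases, and GAAA) was found in B2m alone of the 8 and in 2.98% of 32851 promoters. The STAT site TTCNNNGAA was found in Psmb8 alone and in 7.02% of all promoters, and the cAMP response element TGACGTCA in 0 of the 8 and in 1.55%. The Y box core ATTGG was found in 6 of the 8 (H2-K1, H2-D1, B2m, Tap1, Tapbp, and Psmb9) and in 33.8% of all promoters, although Tap1 and Psmb9 lie head to head and share 225 bases of their windows, so that they are not separate cases. Looser forms were chosen after the sequences had been seen. GAANNGAAA was found in H2-K1 and H2-D1 and in 6.31% of all promoters, and the stretch GGGGATTCCCC that precedes it in the H2-K1 region shown, an NF-kappaB form, in the same 2 genes and in 0.0304% (10 promoters). A match describes the letters of the window and is not a measured binding site.

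B2m encodes the invariant light chain, without which heavy chains do not reach the surface. B2m (chr2:122147686-122153083, plus strand) had 176, 182, and 219.8 CPM in JB81, JB91, and JB97 and 429.7, 169.7, and 464 CPM in JB84, JB87, and JB93. JB87 was below all 3 BNC lines, and the difference between the groups (log2 fold change -0.95, SE 0.39) did not pass the test (edgeR adjusted p = 0.139). Per kilobase of transcript, B2m was the most abundant of the 10 genes in every line, at 197 to 540.0 CPM per kilobase. Heavy chain RNA (H2-K1 plus H2-D1 per kilobase, relative to B2m per kilobase) was therefore a smaller part in the BNC lines, at 0.135, 0.137, and 0.23, than in the NC lines, at 0.454, 0.627, and 0.461. JB87 had the highest value of this ratio among the lines. Its heavy chains stood above those of the BNC lines while its B2m did not, and compared with the mean of JB84 and JB93 its B2m was 2.63-fold lower, H2-K1 1.89-fold, and H2-D1 1.96-fold.

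Tap1 and Tap2 encode both chains of the peptide transporter, and Tapbp encodes tapasin, which links the transporter to the heavy chain. Tap1 (chr17:34187553-34197225, plus strand) had 11.9, 10.7, and 12.7 CPM in JB81, JB91, and JB97 and 67.7, 25.8, and 72.9 CPM in JB84, JB87, and JB93. It fell 4.93-fold in the BNC lines (log2 fold change -2.30, SE 0.41; edgeR adjusted p = 0.0234). Tap2 (chr17:34203527-34216321, plus strand) had 4.79, 5.69, and 4.27 CPM in the BNC lines and 47.5, 14.5, and 50.6 CPM in the NC lines. Tap2 fell 7.96-fold (log2 fold change -2.99, SE 0.51; edgeR adjusted p = 0.0216), and for both transporter genes the 3 BNC lines were close together and JB87 lay between them and the other NC lines. Tapbp (chr17:33915899-33929292, plus strand) had 55.0, 62.8, and 57.3 CPM in the BNC lines and 184, 54.1, and 205 CPM in the NC lines. JB87 lay below the BNC lines, and the difference (log2 fold change -1.40, SE 0.49) did not pass the edgeR test (adjusted p = 0.0990). Per kilobase, Tapbp stood above both heavy chains in JB81 (18.97 against 13.7 and 13.8 CPM per kilobase) and JB91 (21.7 against 15.1 and 13.8), whereas both heavy chains stood above Tapbp in JB97 and in all 3 NC lines.

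Psmb8 and Psmb9 encode subunits of the immunoproteasome that take the place of Psmb5 and Psmb6. Psmb8 (chr17:34197721-34201454, plus strand) had 5, 5, and 7 reads in JB81, JB91, and JB97, or 0.210, 0.211, and 0.356 CPM, and 10.0, 7.998, and 9.67 CPM in JB84, JB87, and JB93. It fell 36.7-fold (28.7- to 46.8-fold within 1 SE; log2 fold change -5.20, SE 0.35; edgeR adjusted p = 0.0047), and JB87 was close to the other NC lines. Psmb9 (chr17:34181987-34187764, minus strand) had 0.630, 0.463, and 0.407 CPM in the BNC lines and 6.21, 1.31, and 6.55 CPM in the NC lines. It fell 9.68-fold (log2 fold change -3.27, SE 0.69; edgeR adjusted p = 0.0339), with JB87 nearer to the BNC lines than to the other NC lines. The constitutive partner genes stayed abundant. Psmb5 had 67.2, 67.2, and 63.8 CPM in the BNC lines and 23.2, 68.7, and 27.2 CPM in the NC lines (log2 fold change 0.68; edgeR adjusted p = 0.283). Per kilobase, Psmb8 relative to Psmb5 was 0.00173, 0.00173, and 0.00308 in the BNC lines and 0.238, 0.0643, and 0.196 in the NC lines. Psmb9 relative to Psmb6 was 0.00386, 0.00286, and 0.00216 in the BNC lines and 0.0341, 0.00649, and 0.0304 in the NC lines. Both ratios were below those of every NC line in all BNC lines, and every line was below every tumor. Psmb10, the other inducible subunit, did not share this pattern, with a ratio to Psmb7 of 0.0696, 0.0596, and 0.0681 in the BNC lines and 0.0436, 0.0865, and 0.064 in the NC lines.

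**Figure D3:**
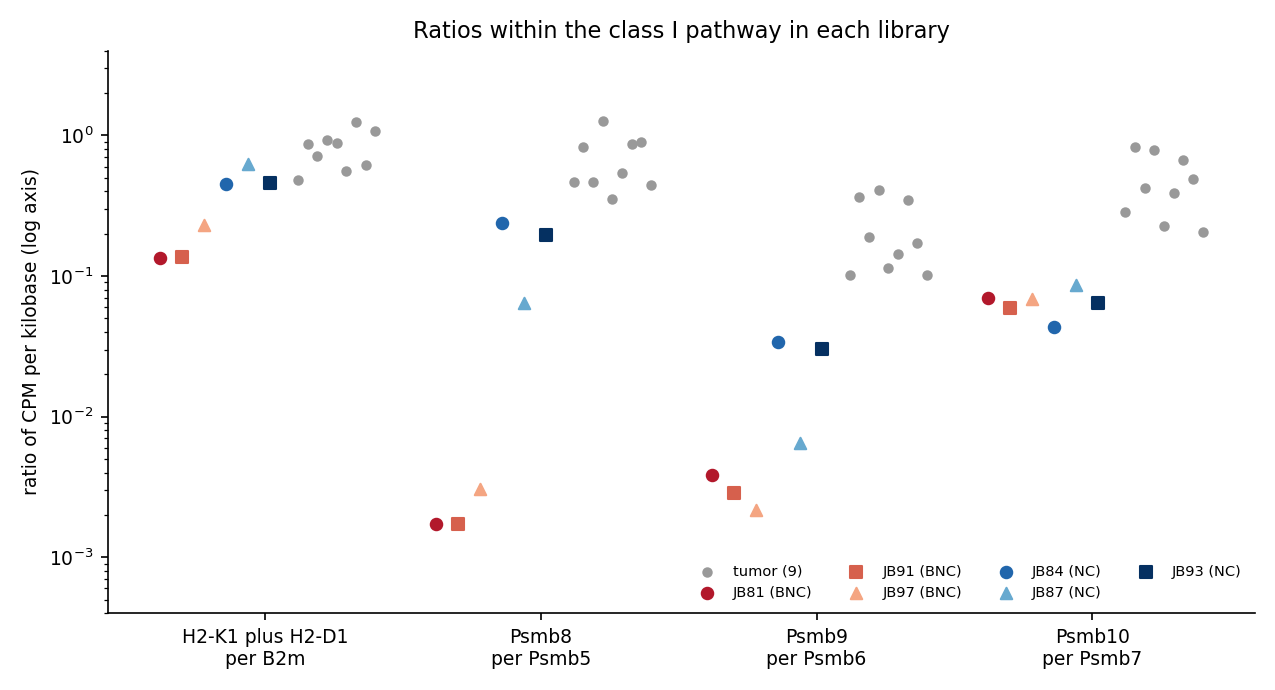
Ratios of levels per kilobase in every library, on a log axis, for heavy chains relative to B2m and for each inducible proteasome subunit relative to its constitutive partner. BNC lines lie lowest for the heavy chain, Psmb8, and Psmb9 ratios, the Psmb10 ratio overlaps between the groups of lines, and all 9 tumors lie above all lines for the 3 proteasome ratios.

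Nlrc5 encodes the transactivator of class I genes, and Erap1 encodes the aminopeptidase that trims peptides in the endoplasmic reticulum. Nlrc5 (chr8:94434356-94527272, plus strand) had 3, 0, and 7 reads in JB81, JB91, and JB97 and 78, 7, and 129 reads in JB84, JB87, and JB93. In CPM the NC lines stood at 4.85, 0.538, and 5.75, so that JB87 was close to JB97 (0.356 CPM), and the difference did not pass the edgeR test (log2 fold change -4.61, SE 1.29; adjusted p = 0.0628). Erap1 (chr13:74639568-74693201, plus strand) had 22.2, 19.3, and 37.1 CPM in the BNC lines and 61.6, 30.8, and 56.9 CPM in the NC lines. JB97 was above JB87, and the difference did not pass the edgeR test (log2 fold change -0.997, SE 0.36; adjusted p = 0.107). The strand setting of the counting is not given in the sources used here, so values of overlapping genes are uncertain. In the annotation Tap1 and Psmb9 share 212 exon bases on opposite strands, and exons of Tapbp (904 bases), Erap1 (834), Tap2 (533), Psmb8 (498), and Nlrc5 (78) overlap other genes.

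Other genes of the class I pathway were followed in a list of 22, of which 19 were tested. Of these, 4 fell at an edgeR adjusted p under 0.05, 0 rose, and 12 of 19 were lower in direction, where 8.45% of all genes tested fell at that threshold and 50.2% were lower in direction. The median log2 fold change was -0.66. Psme1 and Psme2 encode the PA28 proteasome activator. Psme1 had 20.6, 19.8, and 17.7 CPM in JB81, JB91, and JB97 and 43.4, 39.3, and 43.2 CPM in JB84, JB87, and JB93, a log2 fold change of -1.17 (SE 0.15; edgeR adjusted p = 0.0121). Psme2 fell by 1.23 on the log2 scale (edgeR adjusted p = 0.0216). H2-Q4 and H2-M3 encode nonclassical class I heavy chains. H2-Q4 had 0.252, 0.168, and 1.02 CPM in the BNC lines and 12.7, 3.69, and 13.2 CPM in the NC lines (log2 fold change -4.45; edgeR adjusted p = 0.0293). H2-Q4 reached the filter on low counts in 1 of the BNC lines and in all 3 NC lines, so that it could pass the filter only with a difference of this direction. The other 3 genes with an adjusted p under 0.05 reached it in every line. H2-M3 had 1.85, 2.57, and 3.20 CPM in the BNC lines and 30.4, 7.23, and 26.8 CPM in the NC lines (log2 fold change -3.15; edgeR adjusted p = 0.0264). The chaperone genes Calr (0.86; edgeR adjusted p = 0.211), the most abundant of the list per kilobase by its median over the lines, and Canx (-0.38; adjusted p = 0.161) did not pass the test. Neither did the 3 genes of the Y box factor, of which Nfya (0.38; edgeR adjusted p = 0.141) and Nfyc (0.72; adjusted p = 0.143) had higher values in BNC lines and Nfyb lower ones (-0.84; adjusted p = 0.0708). Of 14 constitutive proteasome genes, 0 passed at an adjusted p under 0.05 and 2 had an unadjusted p under 0.05, where 35.6% of all genes tested had one, Psma1 (-0.43; edgeR adjusted p = 0.0577) and Psmb3 (-0.50; adjusted p = 0.131). Psmb5 and Psma2 (0.39; edgeR adjusted p = 0.298) had the smallest p in the other direction.

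The interferon state of each line was described with 24 interferon-response genes, of which 19 were tested. All 19 were lower in the BNC lines, where 50.2% of all genes tested were lower in direction. At an edgeR adjusted p under 0.05, 12 of the 19 were lower, where 8.45% of all genes tested were. With edgeR 0 of the 19 were called, although all 19 had an unadjusted p under 0.05 (35.6% of all genes tested had one). DESeq2 called all 19 (8.51% of the genes it tested were called lower). Of these 19, 5 reached the filter on low counts in no BNC line and in all 3 NC lines, so that their direction was fixed by the filter, and 10 reached it in every line, 5 of them with an adjusted p under 0.05. Bst2, which encodes the membrane protein tetherin, was the most abundant and had 0.967, 0.842, and 1.42 CPM in JB81, JB91, and JB97 and 243, 23.5, and 233 CPM in JB84, JB87, and JB93 (log2 fold change -7.34, SE 1.05; edgeR adjusted p = 0.0151). Oasl2, of the oligoadenylate synthetase family, had 0.0420, 0.126, and 0.254 CPM in the BNC lines and 202, 7.92, and 212 CPM in the NC lines (log2 fold change -10.02, SE 1.62; edgeR adjusted p = 0.0190), with at most 5 reads in a BNC line. Interferon-response genes were thus abundant in JB84 and JB93, close to 0 in the 3 BNC lines, and low in JB87. Their mean log2(CPM + 1) was 1.16, 1.19, and 1.24 in the BNC lines and 6.11, 2.13, and 6.13 in the NC lines. The mean over the 10 class I genes was 3.46, 3.45, and 3.80 in the BNC lines and 5.82, 4.56, and 5.91 in the NC lines. Of 12 genes linked to interferon gamma, 7 were tested and 3 fell at an edgeR adjusted p under 0.05, where 8.45% of all genes tested did. They were the GTPase genes Igtp (-8.27; adjusted p = 0.0271) and Gbp3 (-7.59; adjusted p = 0.0293), and Cd274, which encodes PD-L1. These 3 reached the filter on low counts in no BNC line, so that they could be tested only with a difference of this direction. Irgm1, the most abundant of them, did not pass (-2.18; edgeR adjusted p = 0.0871).

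The receptor and kinase genes upstream of this response did not pass the test. Of 7 tested, 0 had an edgeR adjusted p under 0.05 and 2 had an unadjusted p under 0.05, where 35.6% of all genes tested had one. The log2 fold changes were 0.19 for Ifnar1, -0.02 for Ifnar2, -0.90 for Ifngr1 (edgeR adjusted p = 0.0905), 0.51 for Ifngr2, 0.03 for Jak1, -0.99 for Jak2 (adjusted p = 0.132), and -0.32 for Tyk2. The ligand genes Ifnb1 and Ifng had 0 counts in all 6 lines, so their RNA was not detectable at this depth.

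JB87 separated the class I genes from one another. JB84 and JB93 were near identical over all genes, so the position of JB87 was set on a scale for each gene on which 0% is the mean of the 3 BNC lines and 100% the mean of JB84 and JB93, in log2(CPM + 1). Psmb8 stood at 91.4%, H2-K1 at 66.2%, and H2-D1 at 64.3%, and these 3 were the ones past the middle of the scale. Tap2 (45.3%) and Tap1 (43.3%) lay near the middle, and Psmb9 (27.1%), Erap1 (23.6%), and Nlrc5 (17.1%) lay nearer to the BNC lines. Tapbp (-6.16%) and B2m (-14.2%) lay below the BNC mean. The median was 35.2% over the 10 genes and 8.74% over the 24 interferon-response genes, which ranged from -3.05% to 52.1% with 1 of 24, Bst2, past the middle. With log2(CPM + 0.1) these medians were 40.0% and 24.1%. Irf1, a transcription factor of class I promoters, had 43.9 CPM in JB87 against 32.1 and 30.9 CPM in JB84 and JB93 and 12.5, 15.2, and 29.6 CPM in the BNC lines. Among class I genes in JB87, therefore, some stood with JB84 and JB93, where interferon-response genes were abundant, and others with the BNC lines. JB87 is 1 line, the position is a description, and no test was run on lines grouped by their interferon genes.

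**Figure D4:**
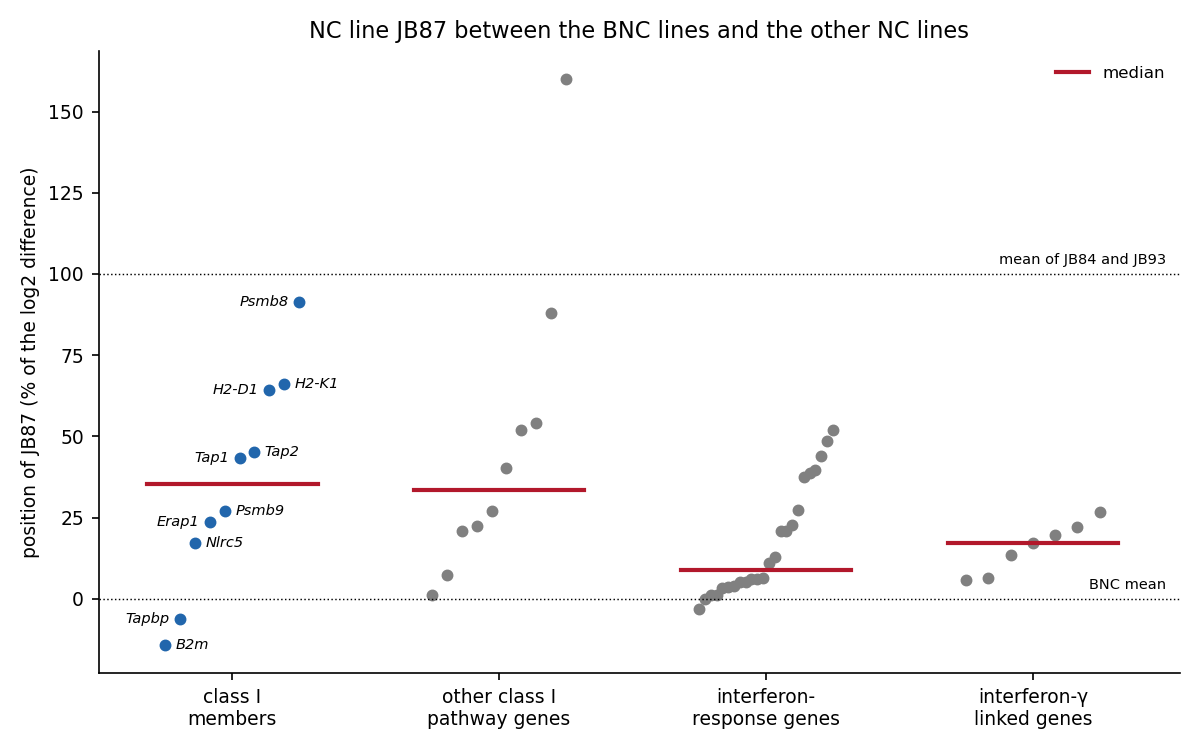
Position of the NC line JB87 for each gene, in percent of the log2 difference between the BNC mean (0) and the mean of JB84 and JB93 (100), with red lines at the medians of the 4 lists. Class I genes spread from -14.2% (B2m) to 91.4% (Psmb8), and the median of the interferon-response genes is 8.74%.

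JB97 stood above the other BNC lines for several class I genes. H2-D1 was 2.57-fold higher in JB97 than in the mean of JB81 and JB91, Erap1 1.79-fold, and H2-K1 1.62-fold, and 7 of the 10 genes were above. Psmb8 (1.69-fold) and Nlrc5 (5.64-fold) were among them, but each had at most 7 reads in a BNC line. Its mean log2(CPM + 1) over the interferon-response genes (1.24) was near those of JB81 and JB91 (1.16 and 1.19), whereas its mean over the genes linked to interferon gamma was 0.932 against 0.617 and 0.614. Of these 11 genes, 6 were higher in JB97 than in the mean of JB81 and JB91 and 3 were lower. Irgm1 had 54.9 CPM in JB97 against 24.4 and 25.01 CPM, and Gbp2 3.36 CPM against 0.210 and 0.463 CPM, whereas Igtp had 0.152 CPM against 0.252 and 0.0842 CPM. Irf1 also stood higher (29.6 CPM against 12.5 and 15.2 CPM).

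The genes outside all lists whose pattern over the 6 lines was closest to the mean pattern of the 10 class I genes were Rnf213 (root mean square distance 0.0495 on the log2 scale), Klf9 (0.0655), Ctsl (0.0693), BC052040 (0.0755), and Ncoa3 (0.096), out of 9952 genes with a mean of at least 5 CPM. Rnf213 had 219, 214, and 289 CPM in the BNC lines and 1231, 495, and 1261 CPM in the NC lines. With so many candidates over 6 lines that hold close pairs, some genes match by the number searched alone, and the list is a description.

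Markers of other cell types were also measured in the lines. The summed level of 18 leukocyte genes was 42.4, 46.2, and 6.86 CPM in JB81, JB91, and JB97 and 7.77, 9.61, and 9.54 CPM in JB84, JB87, and JB93, with 9 to 11 of the 18 at 0 counts. Cd68 was the most abundant of them per kilobase by its median over the lines (2.60 CPM per kilobase). Lyz2, a myeloid lysozyme gene, had 35.4 and 39.4 CPM in JB81 and JB91 and at most 1.17 CPM in the other lines, and it was higher in BNC lines (log2 fold change 7.64; edgeR adjusted p = 0.0354), with 0 NC lines over the filter, whereas the monocyte gene Cd14 was lower (-2.34; adjusted p = 0.0373). Ptprc, which encodes CD45, had at most 1 count in any line, Cd3e had 0, and Adgre1 had at most 1. Other genes of the list were above 0, among them Cd68 with 42 to 91 counts in every line and Csf1r, which encodes the receptor of a macrophage growth factor, with 79, 79, and 14 counts in the BNC lines and 0, 12, and 0 in the NC lines. Their part in the class I values was not tested. The class II heavy chain gene H2-Aa had 0 counts in every line, and Cd74, the one gene of the class II list tested, had 229, 273, and 9 counts in the BNC lines and 14, 0, and 16 in the NC lines (log2 fold change 3.67; edgeR adjusted p = 0.126). The endothelial genes Pecam1 and Cdh5 had at most 5 counts, whereas Kdr, of the same list, had 0.168, 0.0421, and 7.17 CPM in the BNC lines and 56.4, 48.2, and 55.6 CPM in the NC lines, above the tumor median of 28.3 CPM (log2 fold change -4.55; edgeR adjusted p = 0.0935). The mesothelial markers that moved with the groups are given above, and their part in the class I difference was not tested.

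In the 9 tumors class I genes were more abundant than in the lines. The lowest, median, and highest values were 376, 560.4, and 2153 CPM for H2-K1, 424, 827, and 3089 CPM for H2-D1, and 456, 999, and 1925 CPM for B2m. All 9 tumors were above every line for both heavy chains, and 8 were for B2m. Tap1 ranged from 37.0 over 68.5 to 274 CPM, Tap2 from 40.8 over 56.4 to 212 CPM, and Tapbp from 180 over 305 to 648 CPM, with 4, 7, and 8 tumors above every line. Nlrc5 ranged from 18.2 over 30.9 to 65.0 CPM, Psmb8 from 42.0 over 101 to 239 CPM, and Psmb9 from 17.8 over 41.0 to 122 CPM, and all 9 tumors were above every line for these. Erap1, from 19.5 over 43.0 to 78.2 CPM, was above every line in 1 tumor. The tumor B27 was highest for 8 of the 10 genes and B14 for Tapbp and Erap1. The order of lines and tumors differed for the interferon-response genes, whose mean log2(CPM + 1) was 3.73 to 5.54 in the tumors and thus below JB84 and JB93 (6.11 and 6.13), while the mean over the class I genes was 6.50 to 8.47 in the tumors and 5.82 and 5.91 in these lines. For the genes linked to interferon gamma, this mean was 3.36 (B45) to 5.89 (B27) in the tumors and 3.41 and 3.40 in JB84 and JB93. Tumors and lines were in different runs, so kind of sample and run cannot be told apart, and B1 had the lowest total count and a scaling factor of 0.427. A tumor holds other cells, and its leukocyte genes summed to 965 to 6860 CPM, with Ptprc at 77.9 to 230 CPM. In bulk RNA more cells of a type and more RNA per cell cannot be told apart.

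Over the 9 tumors, the level of each class I gene was set against Ptprc and against the interferon mean. Of 20 relations, adjusted together, 7 with Ptprc and 0 with the interferon mean had an adjusted exact permutation p under 0.05 by Pearson's r, and 0 of the 10 with the interferon mean had an unadjusted p under 0.05. Of 11892 genes with a mean of at least 5 CPM in the tumors, 8.51% had a positive r with Ptprc at an unadjusted exact permutation p under 0.05, as had 8 of the 10 class I genes. With the interferon mean, 0.362% of the 11869 genes set against it had one. H2-K1 had r = 0.942 with Ptprc (exact permutation p = 0.000325, two-sided; adjusted p = 0.00325) and rho = 0.9 (adjusted p = 0.0203). Psmb9 had r = 0.93 (exact permutation p = 0.000209; adjusted p = 0.00325) and rho = 0.933 (adjusted p = 0.015). These 2 genes were also the ones that passed by rho. All 10 values of r with Ptprc were positive, from 0.233 for Erap1 to 0.942. The value of Erap1 was 0.0778 without B1 and 0.706 without TMM. Without B2 and B27, the tumors farthest from the median of Ptprc, r was 0.0767 to 0.866, with 0.866 for H2-K1 and 0.841 for Psmb9, and 0 of 20 passed in the 7 tumors left, so that the calls rest on those tumors or on the larger number of tumors. Without B1, 4 of 20 passed. With the interferon mean, r was -0.434 to 0.466, and -0.675 to 0.0899 without B45 and the tumor whose head has no B number (T22). The difference between the relation to Ptprc and that to the interferon mean was not tested. The genes linked to interferon gamma are not part of the interferon mean. Their own mean was highest in B27 (5.89) and lowest in B45 (3.36), as was the mean of the class I genes (8.47 and 6.50). The relation of class I genes to them over tumors was not tested. All tumors were in 1 run, and the share of tumor cells in each was not measured here.

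**Figure D5:**
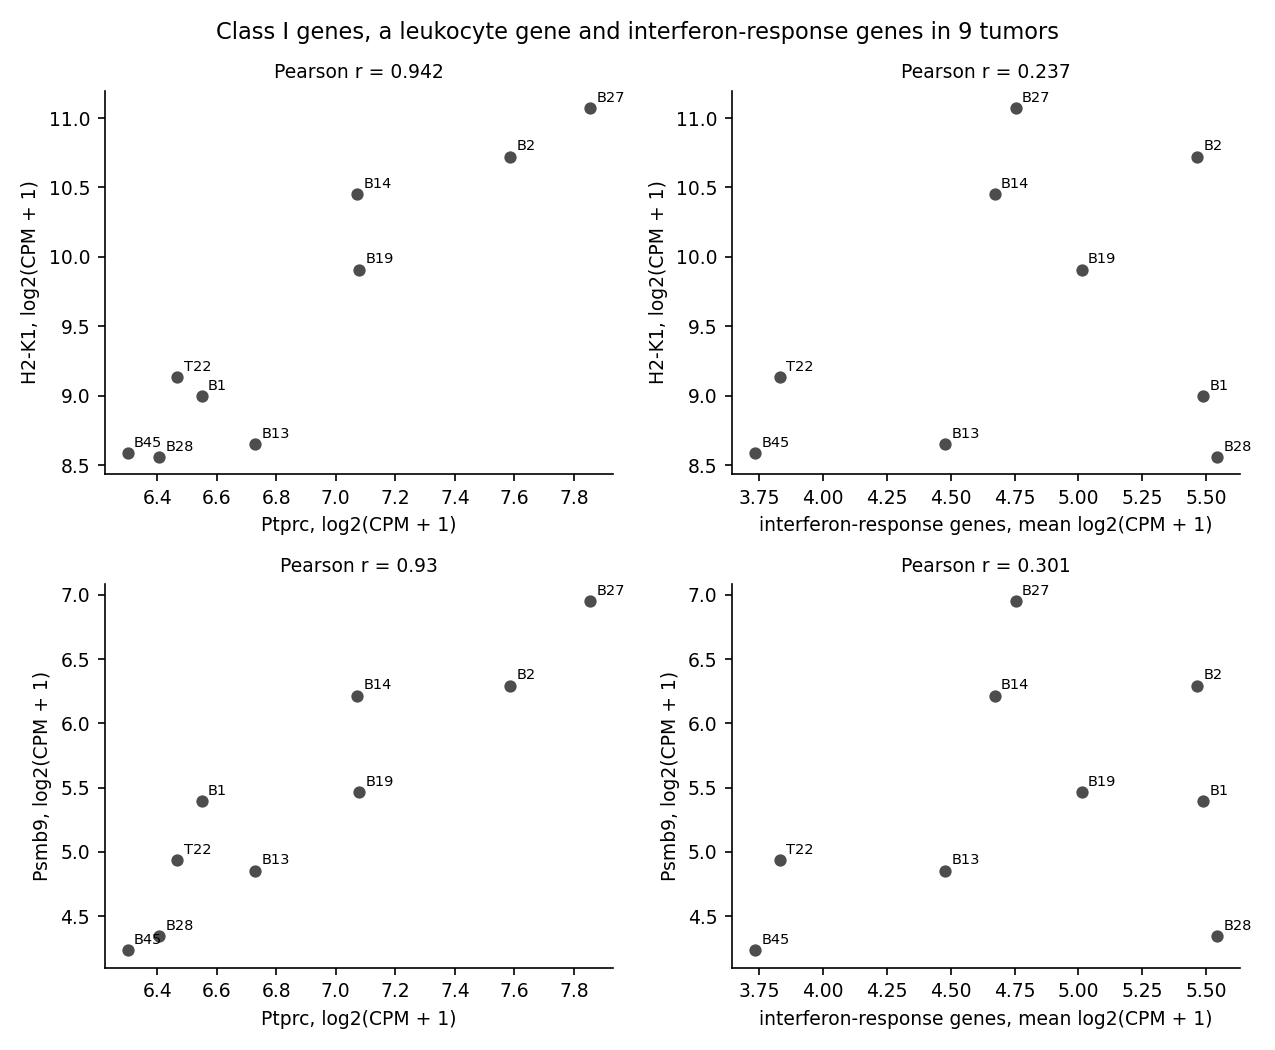
Levels of H2-K1 (top) and Psmb9 (bottom) in the 9 tumors, as log2(CPM + 1) on the vertical axis, against Ptprc (left) and against the mean over 24 interferon-response genes (right), also in log2(CPM + 1), with 1 point per tumor. For H2-K1, r is 0.942 with Ptprc and 0.237 with the interferon mean, and B2 and B27 lie farthest right on the Ptprc axis.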

How the data were processed

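RNA of 6 mesothelioma cell lines and 9 tumors was sequenced as poly-A-enriched, 65-bp single-end libraries. The authors mapped the reads to mm10 with TopHat2 2.0.12, dropped nonprimary and poorly mapped alignments, and counted the reads left per Ensembl gene with HTSeq-count, and they deposited these counts without normalization. Line columns were assigned by the line names in their heads. The chromatin profiles and 14 columns of DNA log2 values do not measure RNA and were left out. Histone marks and copy number at the class I genes were therefore not examined. A symbol was found for 98.5% of the genes.

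Counts were analysed with edgeR 4.0.16 in R 4.3.3 (filterByExpr, minimum count 10; TMM; quasi-likelihood test of BNC against NC lines, no covariates; Benjamini-Hochberg adjustment over 12376 genes; called at an adjusted p under 0.01 and more than 2-fold). DESeq2 1.42.0 was an alternative. The SE is the log2 fold change divided by the square root of F. CPM values were TMM-scaled over all 15 libraries, and values per kilobase use the principal transcript of GENCODE M21. Relations over tumors were tested by exact permutation (362880 pairings; smallest p 2.76e-06) in scipy 1.17.1. The tests were checked on simulated counts. The simulated lines were drawn independently and held no close pairs, so the check does not cover p-values for lines that are nearly identical.

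The genes and lists were chosen with earlier results of these data known. Named were the 10 genes, the 2 genes with the smallest p in each direction and the most abundant gene of each other list, all receptor and kinase genes, the targeted genes, the marker genes of other cell types, and the 5 genes most alike in pattern. Irf1, Cd274, Gbp2, and the genes in the other observations were given after their values had been seen. Some items are not reported here.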

Additional observations from a re-analysis of the deposited data

Results flagged for a closer look

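The highest of the 9 tumors stood far from the others for 4 of the 10 class I genes, and it was B27 each time. H2-D1 had 3089 CPM in B27 and 424 to 1420 CPM in the other tumors. Tap1 had 274 CPM (37.0 to 148 CPM in the others), Tap2 212 CPM (40.8 to 116 CPM), and Nlrc5 65.0 CPM (18.2 to 36.0 CPM). The gap to the nearest tumor was 0.534 to 0.626 of the whole range, against a critical value of 0.493 for 9 samples. For normally distributed values this limit flags about 1 in 20 genes by chance, and 10 genes were examined in this way. The gaps were taken on CPM without logs, where a high tumor stands out more, so that rate need not hold here. The share of all genes flagged in this way was not counted. The 4 genes are also not independent, since they come from the same library. B27 also had the highest Ptprc of the tumors, at 230 CPM, and its part in these values was not tested.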

How the results depend on the processing

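All 10 class I genes were lower in BNC lines under every alternative that tested them (7 of 7 where at least 10 counts were required in every line), and their number past each threshold moved. With edgeR 136 genes and 1 of the 10 were called, and 6 of the 10 had an adjusted p under 0.05. Without the fold threshold, at an adjusted p under 0.05, these were 1761 and 6, with DESeq2 2002 and 7, with at least 10 counts in every line 83 and 0, and with the run as a covariate 1 and 0, with 2 of the 10 at an adjusted p under 0.05. With each close pair summed 0 genes and 0 of the 10 were called and 0 of the 10 had an adjusted p under 0.05 (edgeR; 1508 genes and 6 of the 10 had an unadjusted p under 0.05). With 1 line left out at a time, 0 to 2574 genes and 0 to 7 of the 10 were called, and 0 to 10 had an adjusted p under 0.05.

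With the replicate number that the study's table of regulated genes gives each line as a block, where JB91 and JB97 are both numbered 2, edgeR called 0 genes and 0 of the 10, and 0 of the 10 had an adjusted p under 0.05 (2146 genes had an unadjusted p under 0.05). With JB97 as number 3 in the block, 0 and 0 were called and 4 had an adjusted p under 0.05 (2.24% of all genes were lower at that threshold). With JB97 as number 3, deviations of same-numbered lines from their group means correlated at 0.10, -0.07, and -0.08, and 2 of 6 lines correlated best with their own number. With so few lines per group, and close pairs among them, these values cannot tell whether same-numbered lines share more than a number.

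Without TMM the median log2 fold change of all genes was -0.14 in place of -0.0023, and Psmb8 in the NC lines was 10.5 CPM. The number of relations over tumors that passed fell from 7 to 0 without the 2 tumors farthest from the median and to 4 without B1, an alternative chosen after the data were seen. Signs of r with the interferon mean turned for H2-K1 (-0.201), H2-D1 (-0.182), Tap1 (-0.289), Tap2 (-0.522), Tapbp (-0.602), Nlrc5 (-0.00775), and Psmb9 (-0.262) without the 2 tumors, for H2-D1 (-0.00643) with log2(CPM + 0.1), and for Erap1 (0.201) without TMM. The other pseudocount for the position of JB87 was also chosen after the data were seen. The cause of these moves was not tested. Genes with few counts in BNC lines, Nlrc5, Psmb8, and Psmb9, are limited by depth.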

Other observations

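Nonclassical class I genes differed among themselves across lines and tumors. H2-T23, which encodes the heavy chain Qa-1, had 3.91, 3.92, and 1.37 CPM in JB81, JB91, and JB97 and 34.5, 3.54, and 36.5 CPM in JB84, JB87, and JB93, so that JB87 was level with the BNC lines (position 7.26%). H2-T24 was likewise low in JB87, with 0.168, 0.126, and 0.305 CPM in the BNC lines, 0.231 CPM in JB87 and 11.1 and 10.1 CPM in JB84 and JB93 (position 1.21%). H2-Q6 and H2-Q7, in contrast, had at most 2 and 8 counts in any line, JB84 and JB93 included, and 16.04 to 154 CPM and 28.3 to 269 CPM in the tumors. H2-T24 was not above the highest line in any of the 9 tumors (1.15 to 10.3 CPM). These related genes can share reads, and the genes named here were chosen after their values had been seen.

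The tumor B27 stood apart for genes beyond class I. Cd274 had 239 CPM in B27 and 4.59 to 30.5 CPM in the other tumors, and Cd14 had 1976 CPM against 21.8 to 176 CPM.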
